A study of Ovis aries with 5 samples.

Results

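The regions described here carried H3K4me3 together with H3K27ac and no H3K27me3 in fetal sheep perirenal fat. They were chosen by measured values: a region of the joint H3K4me3 list on chromosomes 1 to 26, shorter than 8000 bp, that overlapped a region of the joint H3K27ac list by at least 1 bp and no region of the joint H3K27me3 list. Of the 16098 joint H3K4me3 regions, 15350 lay on these 26 autosomes, 14729 of those were under the length limit, and 12867 of those overlapped no H3K27me3 region. Of these 12867 eligible regions, 8064 overlapped an H3K27ac region, which is 62.7% (95% Wilson interval 61.8 to 63.5%, which covers counting error alone). Because the overlap chose the regions, this share is a description of the selection and was not tested.

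H3K4me3 is a methylation of histone H3 that is laid down around the start sites of transcribed genes and of genes kept ready for transcription. H3K27ac is an acetylation that neutralises a lysine of the same histone tail and marks promoters and enhancers in use, and it cannot sit on the same lysine as the repressive H3K27me3. A region with the first pair of marks and without the third is therefore usually read as an active promoter. Perirenal fat of the late fetal lamb is a brown adipose depot that makes heat after birth.

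ChIP-Seq libraries were prepared from perirenal adipose tissue of untreated, wild type, pure bred merino fetuses at 132 days after conception. Each of H3K4me3 (antibody Abcam ab8580) and H3K27ac (Abcam ab4729) had 2 libraries, 1 from each of 2 animals, and the same 2 animals were used for both marks. Chromatin was cut with micrococcal nuclease, which spares DNA wrapped on nucleosomes, and 1 input library pooled over the fetuses, with no antibody, served as control. The tissue holds several cell types, so more cells that carry a mark and more of the mark per cell cannot be told apart.

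After removal of duplicates the H3K4me3 libraries held 92882463 and 109652707 tags, the H3K27ac libraries 144038222 and 145716523, and the input 26651829. There is no treated group and no second tissue. With 2 libraries per mark, comparisons below are given as the value in each library and no p-value was computed. Regions of a library are not replicates of it. The start sites of genes on the assembly of these data, Oar_v3.1, were not analysed here, so neither the name promoter nor the tissue's marker genes were checked against gene positions, and the regions are called by their marks.

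The 8064 regions had a median length of 2725 bp, with quartiles of 1921 and 3775 bp, and covered 24.2 Mb. At the length limit, the longest regions inside were chr11:36881037-36889027 (7990 bp) and chr11:39831026-39839001 (7975 bp). The nearest outside it, of those with H3K27ac and without H3K27me3, were chr6:22120308-22128313 (8005 bp) and chr11:41570999-41579015 (8016 bp). At the overlap limit, regions inside met H3K27ac by as little as 2 bp (chr2:50648283-50649500 and chr7:17754555-17756412), and the nearest region outside lay 2 bp away (chr1:142844072-142846094). Few regions were near this edge: H3K27ac covered 5269 of the 8064 from end to end (65.3%) and under 50% of the length in 190 (2.36%).

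Each region was described by the peak of each library that overlapped it and held the most tags. The tag density is the number of tags per kb of that peak for every 1000000 tags of the library. All 8064 regions had an H3K4me3 peak in both animals. An H3K27ac peak was present for 8047 regions in animal 1 and 7942 in animal 2, since an H3K27ac region of the joint list can meet an H3K4me3 region with the part that came from 1 library. Tags of peaks at these regions made up 30.1 and 30.8% of the tags in all H3K4me3 peaks, and 18.3 and 16.9% of those in all H3K27ac peaks. Of all H3K4me3 tags in the libraries they made up 5.30 and 7.24%, and of all H3K27ac tags 4.62 and 3.87%.

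The H3K4me3 density had a median of 2.64 in animal 1 (quartiles 2.27 and 2.99) and 3.05 in animal 2 (quartiles 2.60 and 3.52), or 2.85 ± 0.29 (SD, n = 2 libraries). The H3K27ac density had a median of 1.15 in animal 1 (quartiles 1.05 and 1.27) and 1.08 in animal 2 (quartiles 0.968 and 1.20), or 1.12 ± 0.05 (SD, n = 2). Animal 2 was therefore the higher library for H3K4me3 and the lower one for H3K27ac. The median peak held 536 and 863 H3K4me3 tags and 652 and 544 H3K27ac tags. The fold enrichment over the input that the peak caller gave had H3K4me3 medians of 57.9 and 79.3 and H3K27ac medians of 32.0 and 29.6.

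The eligible regions outside the joint H3K27ac list fell into 4 kinds. No H3K27ac peak of either library, at any false discovery rate (FDR), met 1884 regions (14.6% of the eligible). A peak was found in animal 1 alone at 1732 (13.5%) and in animal 2 alone at 251 (1.95%). The last kind, 936 regions (7.27%), had a peak in both animals.

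**Figure D1:**
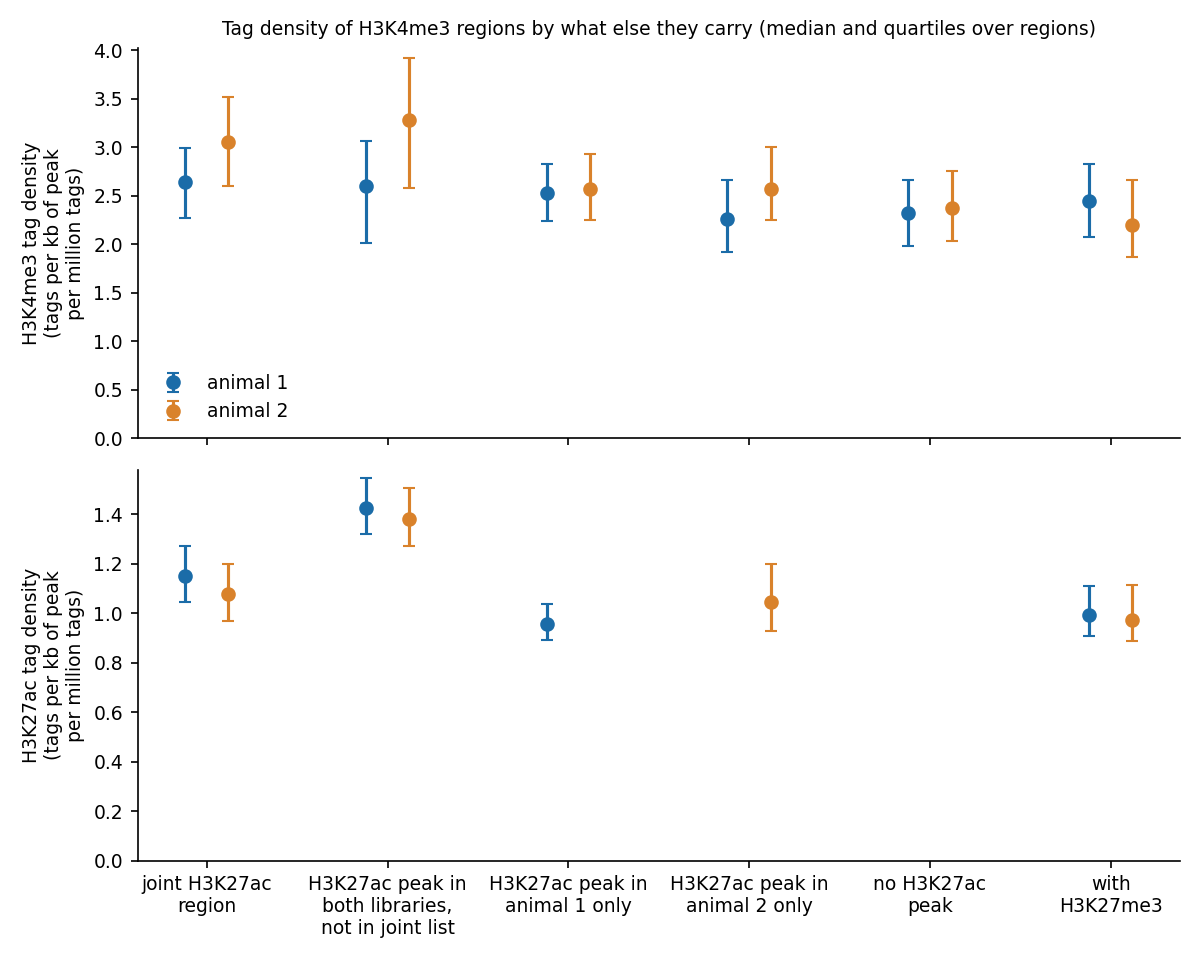
Tag density of H3K4me3 (top) and H3K27ac (bottom) in tags per kb of peak scaled to 1000000 library tags, for H3K4me3 regions grouped by the H3K27ac or H3K27me3 they carry. Points are medians over regions in each animal and bars reach the quartiles. The regions with joint H3K27ac have H3K4me3 medians of 2.64 and 3.05, against 2.32 and 2.38 where no H3K27ac peak was found, and the highest H3K27ac medians (1.43 and 1.38) belong to regions that the joint list leaves out.

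H3K4me3 was denser at regions with H3K27ac than at the 1884 regions without an H3K27ac peak, in both animals: 2.64 against 2.32 in animal 1 and 3.05 against 2.38 in animal 2. Both medians of the first set lay above both of the second, while the quartiles of the sets overlapped. H3K4me3 peaks were also longer, with medians of 2179 and 2584 bp against 1666 and 1752 bp. A longer region has more room to meet an H3K27ac region, so the share with H3K27ac was also taken within bins of region length. It was 54.8% from 1 to 2 kb, 65.7% from 2 to 3 kb, 73.8% from 3 to 4 kb and 68.5% from 4 to 5 kb. Shorter and longer regions are not covered by these bins.

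Within these bins the difference in H3K4me3 density depended on length. From 1 to 2 kb the 2131 regions with H3K27ac had medians of 2.49 and 2.91, and the 908 without a peak had 2.43 and 2.47, so that the sets were close in animal 1. From 3 to 4 kb the 1702 regions with H3K27ac had medians of 2.73 and 3.16, and the 186 without a peak had 1.96 and 1.94. The bins were chosen after the data were seen.

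Regions with H3K27me3 differed from those with H3K27ac in the order of the animals. The 1862 H3K4me3 regions under the length limit that overlapped H3K27me3 had H3K4me3 medians of 2.44 in animal 1 and 2.20 in animal 2, so animal 1 was the higher one there. Of them, 362 (19.4%, interval 17.7 to 21.3%) also overlapped a joint H3K27ac region. Their region length, with a median of 2899 bp, was close to that of the regions with H3K27ac.

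The 936 regions with H3K27ac peaks in both animals that are not in the joint list had more H3K27ac than the chosen regions. Their H3K27ac density had medians of 1.43 and 1.38, against 1.15 and 1.08, and their H3K27ac peaks had median lengths of 7808 and 7176 bp, against 3902 and 3464 bp. The joint list holds peaks with an FDR of at most 10%: each of its 35266 regions had such a peak in both libraries, and none had one within 1% in either. In these H3K27ac libraries the peaks above that limit were those of highest score. In animal 1 the lowest score above the limit was 518.36 and the highest within it 518.33, and in animal 2 these were 463.36 and 463.08. Of the 936 regions, 932 (99.6%) had a peak above the limit in at least 1 animal. Of the 8064 regions, 54 in animal 1 and 60 in animal 2 had such a peak, so regions with the highest H3K27ac scores mostly lay outside the list. With the 936 there would be 9000 regions, or 69.9% of the eligible.

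In the joint H3K27ac list, the 26301 autosomal regions that met no H3K4me3 region had a lower H3K27ac density than the 7962 that met the chosen regions. Through the FDR limit of that list, peaks of highest score are largely missing from both sets. The medians were 1.01 and 1.00 without H3K4me3, and 1.15 and 1.07 with it. Peak lengths were alike, at 3801 and 3682 bp without and 3810 and 3423 bp with H3K4me3. The quartiles of the sets overlapped, at 0.926 and 1.12 without H3K4me3 and 1.04 and 1.27 with it in animal 1.

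The extremes of H3K4me3 density were read by region. The densest was chr2:26312154-26314340, with 4.27 in animal 1 and 6.11 in animal 2, and its H3K27ac density was 1.81 and 1.62. The next started at the first base of chromosome 1 (chr1:1-878), with 5.69 and 4.55, at the end of the assembled sequence. At chr20:32004215-32008485, the values were 3.70 and 6.33. Regions at chr9:25636609-25637746 (4.64 and 5.37) and at chr1:182744224-182746055 (4.18 and 5.75) completed the top 5, and in 4 of these 5 animal 2 was higher, as it was in 80.0% of all regions.

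The least dense H3K4me3 lay at chr2:132852007-132855831, with 1.15 and 1.32, at chr21:31322532-31327260, with 1.19 and 1.32, and at chr11:53709989-53712661, with 1.15 and 1.46. The H3K27ac densities of these 3 were 1.13 and 1.07, then 1.35 and 0.880, then 1.24 and 1.05. They lay between the quartiles of all regions in each animal, other than the value of 1.35, which was above them, and that of 0.880, which was below.

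The highest H3K27ac density belonged to a pair of neighbours, chr18:13388697-13395125 and chr18:13397757-13401543, which share 1 H3K27ac peak of 4377 tags in animal 1 and 4289 in animal 2, a density of 2.20 and 2.06. After them came regions at chr20:7384733-7386758 (2.19 and 1.76), chr2:63727430-63728871 (2.04 and 1.76) and chr1:98425954-98427218 (2.23 and 1.54). Animal 1 was higher in all 5. The lowest were at chr11:51146822-51150551 (0.673 and 0.774), chr15:29067190-29069400 (0.788 and 0.759) and chr9:29386729-29388475 (0.746 and 0.805). The whole range of H3K27ac density was narrow beside that of H3K4me3, from 0.673 to 2.23 in animal 1 against 1.15 to 5.69.

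**Figure D2:**
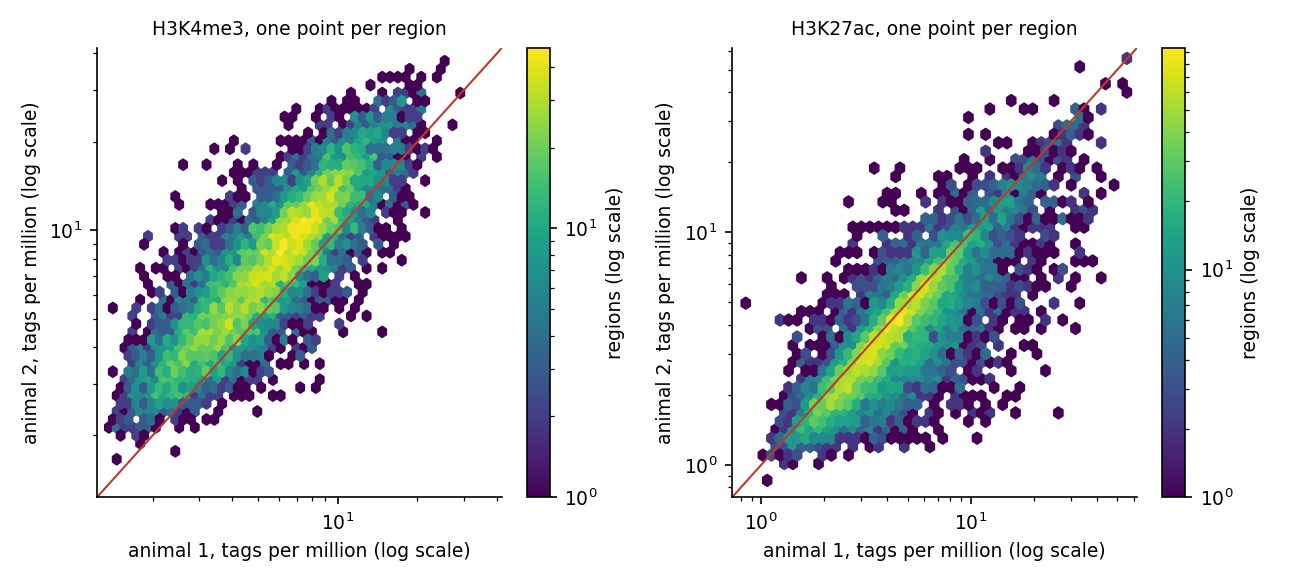
Tags, scaled to 1000000 library tags, in the peak of each region in animal 1 (horizontal, log scale) and animal 2 (vertical, log scale), for H3K4me3 (left) and H3K27ac (right). Colour gives the number of regions and the red line marks equal values. H3K4me3 lies above the line for 87.5% of regions, and H3K27ac spreads below it, with 736 regions more than 2-fold lower in animal 2.

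The animals ranked the regions alike by tags. Spearman's rank correlation over regions was 0.85 for H3K4me3 tags (8064 regions) and 0.81 for H3K27ac tags (7925 regions). Tags grow with peak length, which both libraries share, and per kb the rank correlation was 0.61 and 0.72. These coefficients describe regions that share libraries and sequence, and carry no test. After scaling to library totals, H3K4me3 was higher in animal 2 by a median of 1.37-fold, in 7060 regions (87.5%), and 675 regions were more than 2-fold higher there against 22 lower. H3K27ac was at 0.878 of the level of animal 1 in the median region, with 100 regions more than 2-fold higher and 736 lower in animal 2.

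The largest ratios went with differences in peak length. At chr10:61224182-61231265, the H3K4me3 peak had 235 tags over 1743 bp in animal 1 and 1800 tags over 7084 bp in animal 2, a scaled ratio of 6.49, while the density differed less (1.45 and 2.32). The scaled ratio was 5.66 for chr11:22154943-22162684 and 5.29 for chr1:213054383-213060049. For H3K27ac the largest ratios went the other way. At chr1:171258752-171259736, the peak had 3729 tags over 19277 bp in animal 1 and 256 tags in animal 2, 14.7-fold more in animal 1, with densities of 1.34 and 0.975. The others were chr8:85329204-85330595 (9.75-fold) and chr9:58992805-58994025 (9.16-fold). Per kb, H3K27ac differed by more than 2-fold between the animals in 0 regions, and H3K4me3 in 35.

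The densities of both marks were weakly related over regions. The rank correlation between H3K4me3 and H3K27ac density was 0.17 in animal 1 and 0.33 in animal 2 (0.25 ± 0.11, SD, n = 2 animals). Between animals it was 0.07 for H3K4me3 of animal 1 with H3K27ac of animal 2, and 0.28 for the reverse. Each H3K4me3 library was thus closer to the H3K27ac library of its own animal than to the other. The H3K27ac library of animal 1, however, was closer to H3K4me3 of animal 2 than of animal 1. Lengths were related more closely, with rank correlations of 0.44 in animal 1 and 0.49 in animal 2.

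**Figure D3:**
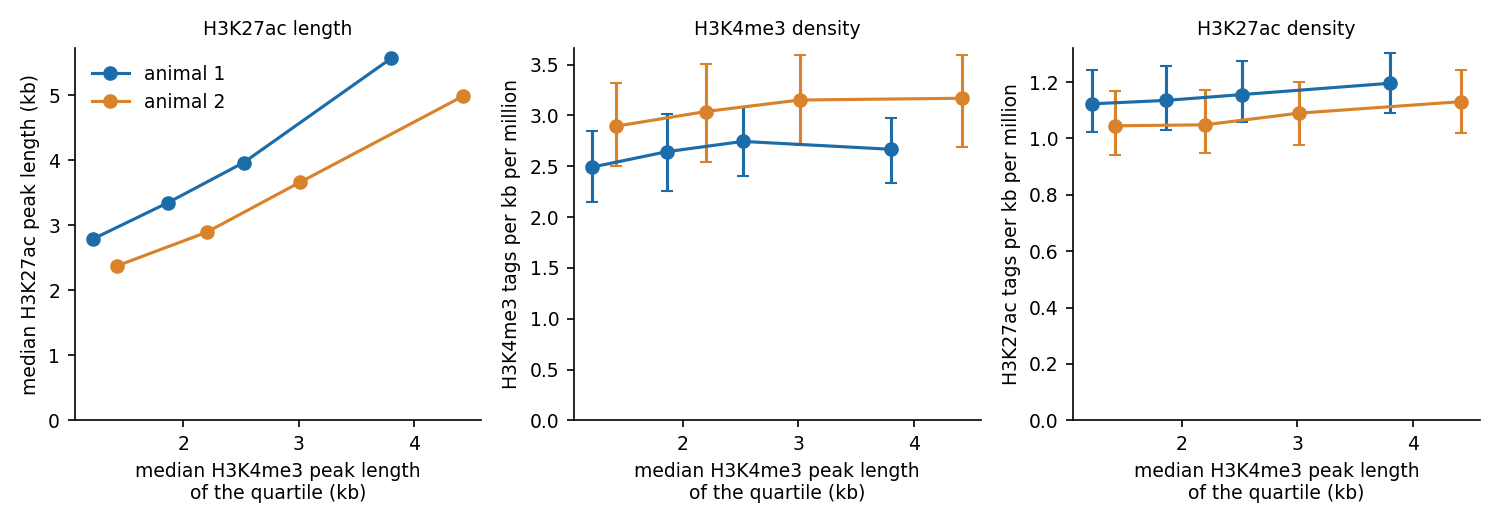
Regions in quartiles of H3K4me3 peak length, with the median length of each quartile in kb on the horizontal axis of all panels. The left panel gives the median H3K27ac peak length in kb, the middle panel the H3K4me3 density and the right panel the H3K27ac density, both in tags per kb scaled to 1000000 library tags, with bars to the quartiles over regions. H3K27ac length goes from 2791 to 5571 bp in animal 1, while the densities differ by 1.06 to 1.09-fold between the end quartiles.

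Wider H3K4me3 peaks went with wider H3K27ac peaks, while the density of each mark stayed almost the same. From the shortest to the longest quartile of H3K4me3 peaks, the median H3K4me3 length went from 1218 to 3801 bp in animal 1 and from 1424 to 4419 bp in animal 2. The H3K27ac length went from 2791 to 5571 bp and from 2376 to 4984 bp. The H3K4me3 density was 1.07-fold and 1.09-fold greater, and the H3K27ac density 1.06-fold and 1.08-fold, both less than the spread between the quartiles of any single group. The total of tags thus followed width: 275 against 958 H3K4me3 tags in animal 1 and 437 against 1570 in animal 2.

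H3K27ac reached past H3K4me3 on both ends in many regions, but the animals differed. H3K27ac peaks were 1.72 times as long as the H3K4me3 peak in the median region of animal 1 (quartiles 1.25 and 2.61) and 1.29 times in animal 2 (quartiles 1.03 and 1.88). They passed both ends of it in 5624 of 8047 regions of animal 1 (69.9%) and 3751 of 7942 of animal 2 (47.2%). They passed 1 end in 28.3 and 47.0%, and lay within the H3K4me3 peak in 1.84 and 5.82%. The value of 58.6 ± 16.0% (SD, n = 2) for both ends is therefore loosely fixed, and H3K4me3 peaks were longer and H3K27ac peaks shorter in animal 2.

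In many regions the H3K27ac peak reached much farther past one end of the H3K4me3 peak than past the other, and the side was mostly shared by the animals. The overhangs at the ends differed by more than 1000 bp in 55.5% of regions in animal 1 and 51.1% in animal 2. With the ends of each region sorted by overhang, which fixes that one is the larger, on its shorter side the H3K27ac peak ended 75 bp beyond the H3K4me3 peak in the median region of animal 1 and 15 bp short of it in animal 2 (a median of -15 bp), against 1378 and 824 bp beyond it on the longer side. Of 7915 regions with a peak in both animals and unequal sides, the longer side was the same in 6397 (80.8%, interval 79.9 to 81.7%). Where the sides differed by more than 1000 bp in both animals it was the same in 2855 of 3116 (91.6%). These sides split evenly along the sequence, with 1436 of 2855 (50.3%, interval 48.5 to 52.1%) toward lower coordinates. The strand of the genes was not analysed here, so a side cannot be called upstream or downstream.

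The summits, the positions of highest tag pile-up, coincided in some regions and stood well apart in others. The H3K4me3 and H3K27ac summits lay a median of 378 bp apart in animal 1 and 288 bp in animal 2 (333 ± 63.6 bp, SD, n = 2), and within 200 bp in 36.3 and 43.3% of regions. In 21.5 and 23.0% they were more than 1 kb apart. The H3K27ac summit fell inside the H3K4me3 peak in 88.0 and 90.4% of regions. Where the summits were over 200 bp apart in both animals, H3K27ac lay on the same side in 2712 of 3267 regions (83.0%).

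**Figure D4:**
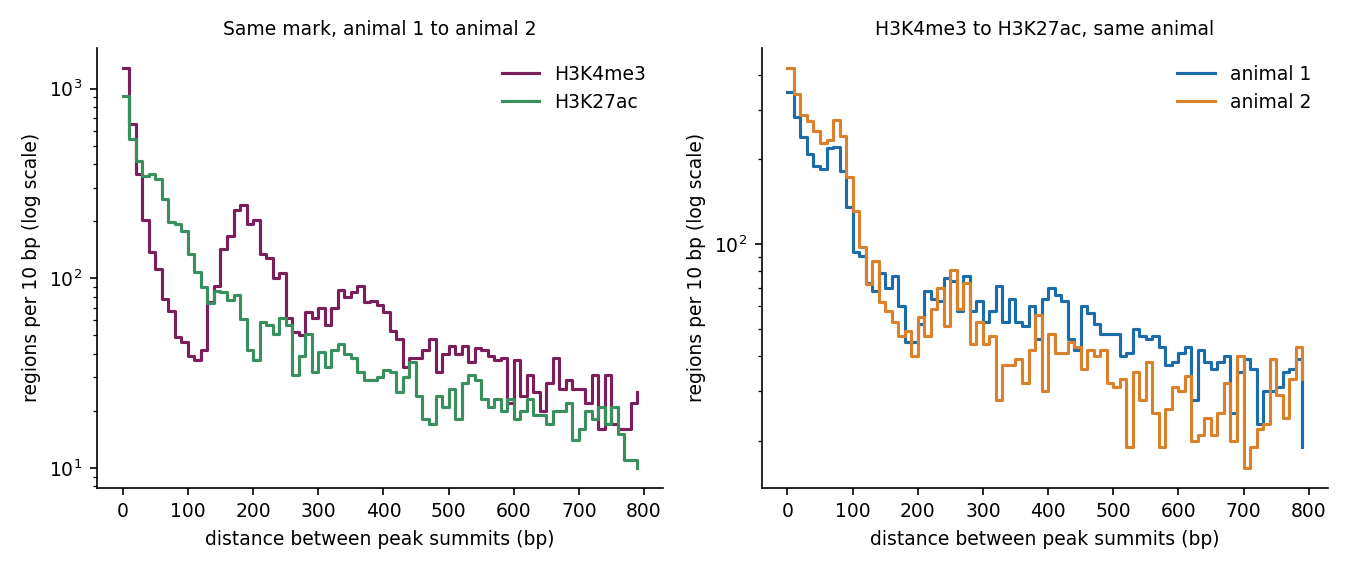
Distance between peak summits in bp (horizontal) and number of regions per 10 bp (vertical, log scale), up to 800 bp. The left panel sets animal 1 against animal 2 for each mark, and the right panel sets H3K4me3 against H3K27ac in each animal. H3K4me3 summits of the animals show a dip to 37 regions per 10 bp, a second rise to 243 at 180 to 190 bp and another to 91 at 360 to 370 bp, and H3K27ac declines without a rise of that size.

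Many H3K4me3 summits of the animals coincided or stood apart by steps. The distance between them was under 60 bp in 2754 of 8064 regions (34.2%), from 60 to 120 bp in 316 (3.92%) and from 120 to 240 bp in 1747 (21.7%). It was 240 to 300 bp in 398 (4.94%), 300 to 420 bp in 882 (10.9%) and larger in the remaining 1967 (24.4%), for which no step is described. In bins of 10 bp the number of regions was 1290 at 0 to 10 bp, 37 at 110 to 120 bp, 243 at 180 to 190 bp, 50 at 270 to 280 bp and 91 at 360 to 370 bp. The chromatin had been cut between nucleosomes, and a nucleosome with its linker takes up about as much DNA as 1 of these steps. Whether nucleosome spacing relates to the steps was not tested.

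The first step was also present outside the chosen regions. Of the 1884 regions without an H3K27ac peak, 5.31% had summits 60 to 120 bp apart and 22.2% had them 120 to 240 bp apart. At the regions with H3K27me3, some of which also had H3K27ac, the shares were 6.61 and 19.9%. From 240 to 300 bp to 300 to 420 bp, the regions without an H3K27ac peak went from 12.2 to 14.7 per 10 bp. Those with H3K27me3 went from 15.7 to 14.3, so a second rise was not seen there. For H3K27ac itself, the distance between the animals was 60 to 120 bp in 1072 of 7925 regions (13.5%) and 120 to 240 bp in 801 (10.1%). Per 10 bp this was 179 regions, then 66.8, whereas H3K4me3 had 52.7 and then 146. H3K27ac peaks were called with a fixed fragment length of 200 bp and H3K4me3 peaks with lengths of 124 and 120 bp estimated from the tags, so this setting and the mark cannot be told apart. Between the marks, the number of regions per 10 bp had a small rise near 70 to 80 bp, from 185 at 50 to 60 bp to 221 in animal 1 and from 229 to 277 in animal 2.

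Some of the regions lay close together, and no expected spread of gaps was computed. Between neighbours on a chromosome the median gap was 88.4 kb (quartiles 22.4 and 264 kb), but 819 of 8038 gaps (10.2%) were shorter than 1 kb, and 328 of these were shorter than 200 bp. The number of gaps per 100 bp was 191 under 100 bp and 23 from 900 to 1000 bp. Of the 819 pairs under 1 kb apart, 232 (28.3%) lay in the same joint H3K27ac region.

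In all, 614 regions (7.61%) shared their H3K27ac region with another, and 211 regions touched 2 H3K27ac regions. The H3K27ac regions over the most H3K4me3 regions were at chr3:133212309-133238229 and at chr4:68903019-68924331, with 4 each, and 6 further ones lay over 3 each, among them chr1:98307530-98315016. The H3K27ac density of the one on chromosome 4 was 1.74 and 1.71, and that of the one on chromosome 3 was 1.30 and 1.11, while the one on chromosome 1 had 1.01 and 0.931, against a median of 1.15 and 1.07.

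Other acetylated regions lay near most of the regions with both marks. A further joint H3K27ac region, not touching the region itself, was within 5 kb of 36.8% (interval 35.7 to 37.9%), within 20 kb of 69.2% and within 50 kb of 88.3%. Of the regions with no H3K27ac peak, 25.5, 50.7 and 73.2% had one at these distances, and of the regions with H3K27me3, 13.1, 33.5 and 56.8%. The 936 regions with H3K27ac peaks in both animals outside the joint list had the highest shares, at 45.9, 83.7 and 95.2%. Further joint H3K27me3 regions, not touching the region itself, lay within 20 kb of 15.6% of the regions with both marks. The share was 6.30% of these 936 regions, 26.8% of those without an H3K27ac peak and 63.2% of those chosen for overlap with H3K27me3. Other H3K4me3 regions did not follow this order, since they lay within 20 kb of 57.0% of the regions with both marks and 62.9% of those without H3K27ac.

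**Figure D5:**
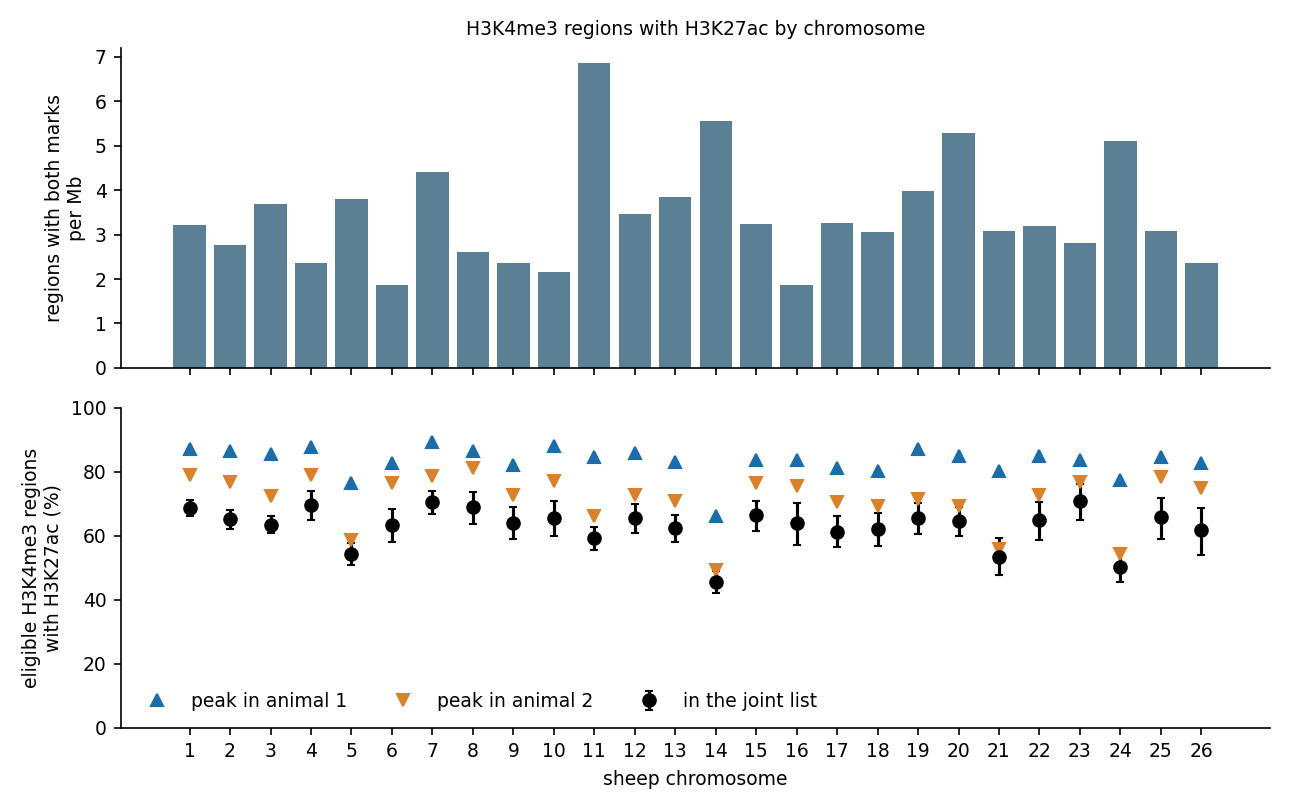
Number of regions with both marks per Mb (top, bars) and share of the eligible H3K4me3 regions with H3K27ac in percent (bottom) on each sheep autosome. Black points give the share in the joint list with 95% Wilson intervals, and triangles the share with an H3K27ac peak in animal 1 (up) and animal 2 (down). Chromosome 11 has the most regions per Mb (6.86), and chromosome 14 has the lowest share by all 3 measures.

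The regions were unevenly spread over the autosomes. Per Mb, up to the last listed position, there were 6.86 on chromosome 11, 5.55 on chromosome 14, 5.28 on chromosome 20 and 5.12 on chromosome 24, and the fewest were on chromosome 6 (1.85) and chromosome 16 (1.86). Chromosomes 11, 14 and 24 also had the most eligible H3K4me3 regions per Mb (11.6, 12.2 and 10.2), but the share of these with H3K27ac was low on the last pair.

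On chromosome 14, 348 of 764 eligible regions had joint H3K27ac (45.5%, interval 42.0 to 49.1%), and on chromosome 24 215 of 428 (50.2%, interval 45.5 to 54.9%). On the other autosomes the share ran from 53.5 to 70.9%, with a median of 64.7%. The lower share was seen in each animal. H3K27ac peaks at any FDR were found at 66.2% of the eligible regions of chromosome 14 in animal 1 and 49.2% in animal 2, against 76.6 to 89.3% and 55.9 to 81.1% on the autosomes other than 14 and 24. On chromosome 24 the shares were 77.3 and 54.2%, which was within that range in animal 1 and below it in animal 2. Chromosome 14 had no H3K27ac peak in either animal at 32.6% of its eligible regions. Over the 26 autosomes, the rank correlation between eligible regions per Mb and the share with joint H3K27ac was -0.46. With the share that had an H3K27ac peak in a single animal it was -0.26 in animal 1 and -0.70 in animal 2, so its size depended on the library. Base composition and gene content of these chromosomes were not analysed here.

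Gene names could be given to regions that lie inside a domestic sweep region for which the study lists a single gene. A sweep region is a stretch of the genome whose variation in domestic sheep bears signs of selection. There were 33 such regions, at 27 genes. Position inside the listed stretch does not show that the region is the start of that gene. As a set they resembled the rest in density. Median H3K27ac densities were 1.18 and 1.09 against 1.15 and 1.08, and median H3K4me3 densities 2.45 and 2.94 against 2.64 and 3.05. An H3K27ac peak was present for 32 of the 33 in animal 1 and 29 in animal 2, against 8047 and 7942 of all 8064 regions. The H3K27ac medians cover the regions with a peak alone.

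By both marks, the region listed with PRDX6, which encodes a peroxidase that reduces phospholipid hydroperoxides, was among the stronger ones. It lay at chr12:52955348-52961022, with H3K4me3 densities of 2.99 and 3.54 and H3K27ac densities of 1.45 and 1.41. The region of RAPGEF4, an exchange factor activated by cyclic AMP, lay at chr2:135980966-135986142, where H3K4me3 was 2.38 and 3.44 and H3K27ac 1.43 and 1.17. That of PPP2R5E, a regulatory subunit of protein phosphatase 2A, lay at chr7:72714685-72720249, where H3K4me3 was 2.72 and 3.1 and H3K27ac 1.30 in both. In these 3 regions H3K27ac was above the median of all regions in both animals.

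Others were unequal in the marks or had low H3K27ac. At MAPT, which encodes the microtubule protein tau, the region at chr11:45411526-45413282 had dense H3K4me3 (3.70 and 3.88) and H3K27ac below the median in both animals (1.13 and 0.884). At KNTC1, a kinetochore gene, the region at chr17:52442721-52444960 had low H3K4me3 (1.54 and 2.42) and H3K27ac near the median (1.19 and 1.03). The region at RPS6KA2, a ribosomal S6 kinase, at chr8:88005323-88007556, had H3K4me3 of 1.88 and 3.09 and H3K27ac of 0.923 and 0.963. That at PSMC4, a proteasome subunit, at chr14:48647048-48648926, had H3K4me3 of 2.44 and 2.22 and H3K27ac of 0.955 and 0.928. Both had H3K27ac below the median in both animals, and at PSMC4 H3K4me3 was below its median in both as well.

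At CENPC, a centromere protein gene, the region at chr6:83171556-83176330 had weak H3K4me3 (1.51 and 1.72) and an H3K27ac peak in animal 2 alone (1.01). LCORL, a gene associated with body size in livestock, had 2 neighbouring regions, chr6:37501913-37503327 and chr6:37503415-37504179. In the first the H3K4me3 density was 1.85 in animal 1 and 4.08 in animal 2, and in the second 4.53 and 4.63, under 1 shared H3K27ac peak of 1.01 and 1.14.

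SREBF1, which encodes a transcription factor for genes of fatty acid and cholesterol synthesis, was picked out after its values were seen. It had 3 regions: chr11:34173987-34176969, chr11:34177045-34179694 and chr11:34183666-34187859. Their H3K4me3 densities were 1.63 and 1.36, then 2.56 and 2.70, then 3.05 and 2.94. In animal 1 the first pair shared an H3K27ac peak of density 1.31 and the last had one of 1.05. In animal 2 a peak met the first region alone (0.899), so the H3K27ac of the other 2 rested on animal 1.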

How the data were processed

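The authors called peaks in each library against the pooled input with MACS 1.4.2, per the file headers, which give 51 bp tags and at most 1 duplicate tag per position. The deposited peak files give, per peak, a count of tags, a score (higher for a smaller p-value), the enrichment against the input (a linear ratio) and, in percent, an FDR. The authors' joint lists hold positions of regions found in both replicates and, by the lists' own names, within an FDR limit of 1 (H3K4me3), 10 (H3K27ac) and 5 (H3K27me3) percent. The study's methods state stricter limits for H3K4me3 and H3K27ac; the peak files met those in the names, with highest values of 1 and 10 percent for the best peak of a region. The methods also give a slightly younger age, and more animals for H3K4me3, than the labels, which were followed here. Before that the authors mapped single end reads to the sheep assembly Oar_v3.1 in CLCBIO and kept those with 1 place in the genome, so repeated sequence is under-represented. 2 files with H3K27me3 peaks per library match no sample of the labels and were left out.

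Overlaps of at least 1 bp were computed with pandas 2.3.3 and numpy 2.4.6 under Python 3.11.15 (scipy 1.17.1 for intervals and rank correlations) by scripts tested on simulated intervals. Each region took the overlapping peak with most tags in each library, at any FDR, and its density is tags per kb of peak scaled to 1000000 tags left after duplicate removal. Values are medians over regions in each library, then mean and SD over the 2 libraries. Intervals are 95% Wilson intervals and cover counting error alone. No test was run. The peak files give no values below the calling limit, so a missing peak is not an absence of the mark. Alternatives changed the overlap, the length limit, the H3K27me3 exclusion, the FDR limit and the choice of peak, or left out 1 library.

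Named regions were the 5 highest and 3 lowest by mean density of each mark, the 3 largest ratios between replicates of each mark, those next to the length limit, the 3 H3K27ac regions over most members, and up to 10 regions inside a sweep region listing 1 gene, in the order of the study's table, from which positions and gene names were taken. The regions, groups and rules were chosen with earlier results of these data known. Gene start sites and base composition were not run, since no annotation or sequence of Oar_v3.1 was used here.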

Additional observations from a re-analysis of the deposited data

Results flagged for a closer look

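H3K27ac signal was found outside the list used for the comparisons: 936 eligible H3K4me3 regions had an H3K27ac peak in both libraries and no region of the joint H3K27ac list. The input was the control of the peak calls, and these peaks had a median fold enrichment over it of 40.8 in animal 1 and 39.0 in animal 2, against 32.0 and 29.6 at the regions with joint H3K27ac. In 702 and 647 of them the peak was above the FDR limit of the list. Their H3K4me3 densities, 2.59 and 3.28, lay on either side of the values at the regions with joint H3K27ac (2.64 and 3.05).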

How the results depend on the processing

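The 12 results were recomputed under 57 alternatives in all. Of these, 47 stayed within the spread between libraries, the counting interval or 1.5 times the count. The 47 include alternatives that left out 1 library of a value averaged over 2, which could not fall outside the spread. The count is therefore no measure of stability. The number of regions (8064) ran from 7874 to 8426 under the other overlap, length and H3K27me3 rules. It was 8861 with H3K27ac peaks of both libraries at every FDR, and from 9834 to 11877 with 1 library alone. With 1 library alone, the H3K4me3 peaks of that animal replaced the joint regions, so its counts and shares have another base. The share with H3K27ac (62.7%) was 61.2% when H3K27ac had to cover 50% of the region, 57.2% with the regions that overlap H3K27me3, 68.9% with H3K27ac peaks of both libraries at every FDR, and 64.7 to 67.4% with 1 library alone. The rank correlation between replicates was 0.61 (H3K4me3) and 0.72 (H3K27ac) per kb, and 0.89 and 0.82 with tags summed over all overlapping peaks. The share of regions that share an H3K27ac region was 2.21% once regions within 1 kb were joined. For medians over 2 libraries, leaving out 1 gives the value of the other, which is within 1 SD by construction: 2.64 to 3.05 and 1.08 to 1.15 for the densities of H3K4me3 and H3K27ac, 1.29 to 1.72 for the length ratio, 288 to 378 bp for the summit distance, 47.2 to 69.9% for H3K27ac past both ends and 0.17 to 0.33 for the rank correlation between the marks. Alternatives chosen after seeing the data added the 936 regions left out of the joint H3K27ac list, which gave an H3K27ac density of 1.14, and took the 7201 regions with 1 H3K4me3 peak in each library, where 22.1% of summits were 120 to 240 bp apart. No paired test was run with 2 libraries per mark. Both marks share the same 2 animals, and their relation is given within each animal. The weakest listed peak held 43 and 50 tags for H3K4me3 and 116 and 119 for H3K27ac, so weaker signal has no value here, and what set these minima was not tested.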
